A study of Homo sapiens with 15 samples.

Results

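The genes described here were transcripts of K-562 cells that stood above the untreated level after a low dose of martinostat and below it after a high dose. Martinostat is an inhibitor of histone deacetylases (HDACs), and K-562 is a human line derived from a chronic myeloid leukaemia, with erythroid and megakaryocytic traits. Sequencing of poly(A) RNA covered untreated cells and cells kept for 24 h in 0.15, 0.25, 0.5 or 1 µM martinostat, with 3 biological replicates of each and 15 libraries in all. Levels are given as CPM, the counts of a gene per 1000000 counts in its library. A protein-coding gene was a member when its mean at 0.15 µM was at least 5 CPM and at least 1.5 times the untreated mean, and its mean at 1 µM was at most 0.67 times the untreated mean. This held for 237 of the 60649 genes in the table, which is 2.19% of the 10837 protein-coding genes with at least 5 CPM at 0.15 µM. Such genes are called expressed below. Members had to reach this level, so the shares of members in gene lists are descriptions. All 237 passed the filter on low counts, which the level asked at 0.15 µM made likely from the start. The members were thus chosen by their mean CPM in the untreated, 0.15 µM and 1 µM libraries. The rise at 0.15 µM and the low level at 1 µM are therefore descriptions. The test was made between 0.25 and 0.5 µM, whose libraries the choice did not use. However, 0 genes were called between 0.5 and 1 µM, so choosing low levels at 1 µM also favours low levels at 0.5 µM. A fall between 0.25 and 0.5 µM is thus partly built into the choice.

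HDACs remove acetyl groups from histones and from many other proteins, and their inhibition raises histone acetylation at promoters and enhancers. Transcripts can go up or down under HDAC inhibitors, and genes whose activity depends on strong enhancers, among them genes of blood cell identity, are known to be sensitive to these drugs. In erythroid cells such genes include the transcription factors that bind GATA, NF-E2 and E-box motifs, the enzymes of heme synthesis and the proteins of the red cell surface.

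Library totals ran from 23755510 to 32805574 counts. The erythroid markers expected of K-562 were present in untreated cells, with GATA1 at 262 CPM and the transferrin receptor TFRC at 982 CPM, while the B cell marker MS4A1 and the neutrophil marker ELANE had 0 counts there. GATA1 itself was at 320, 198, 16.2 and 19.3 CPM over the rising doses and missed membership since its level at 0.15 µM did not reach 1.5 times untreated. In a principal component analysis, replicate 3 of the 0.25 µM group and replicate 3 of the 0.5 µM group stood apart from all other libraries on component 3 (2.01% of the variance). Replicate 3 at 0.25 µM exceeded both other libraries of its group by over 1.5 times in 52 members (21.9%, against 9.67% of expressed protein-coding genes), and that at 0.5 µM did so in 78 members (32.9% against 17.8%). Leaving out both of these libraries left 234 members lower at 0.5 than at 0.25 µM. Membership itself depended on the scaling. With trimmed mean of M values (TMM) scaling, whose factors were 0.785 to 0.828 in untreated and 0.95 to 1.28 in treated libraries, the same rule found 171 genes, of which 110 were among the 237.

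Relative to untreated cells the median member was at 1.88 times at 0.15 µM, 1.57 times at 0.25 µM, 0.439 times at 0.5 µM and 0.464 times at 1 µM. Expressed protein-coding genes had medians of 1.09, 1.13, 1.02 and 1.01 over the same doses. At 0.25 µM, 217 members were above the untreated mean, of which 127 were at 1.5 times or more, and 20 were below it. At 0.5 µM, 236 members were below the untreated mean, 216 of them at 0.67 times or less, 55 at 0.25 times or less and 11 at 0.1 times or less. The member above untreated at 0.5 µM was GABRE, the epsilon subunit of the GABA-A receptor, at 1.07 times. This ratio rested on replicate 3 at 0.5 µM, which was far above the other libraries of its group. The low levels at 0.5 and 1 µM were close to each other, with a median ratio of 1 over 0.5 µM of 1.004. On this scale of library totals the median member was thus above untreated at both lower doses and below it at both higher doses. With TMM scaling the median log2 change of the members from untreated to 0.25 µM was 0.13, under the 0.32 of all tested genes, and 24.1% of members were called higher at 0.25 µM against 37.4% of all tested genes. In bulk RNA, fewer cells of a type and less RNA per cell cannot be told apart.

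**Figure D1:**
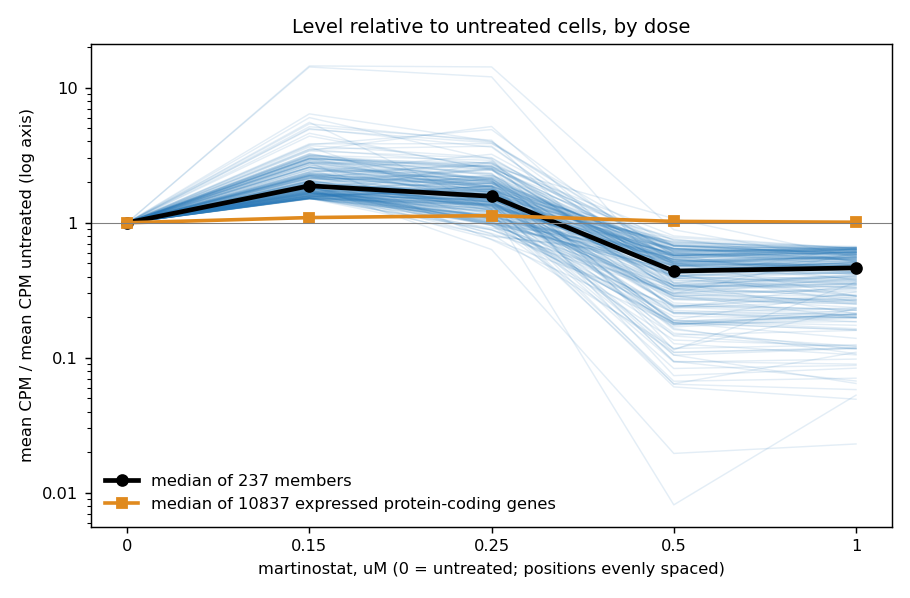
Mean CPM of each of the 237 members divided by its untreated mean (log axis), by dose of martinostat in µM, as thin lines, with the median of the members in black and that of 10837 expressed protein-coding genes in orange. The black line goes from 1.88 at 0.15 µM and 1.57 at 0.25 µM to 0.439 at 0.5 µM and 0.464 at 1 µM, while the orange line stays between 1.01 and 1.13; the 0.15 and 1 µM values chose the members.

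Members just inside and just outside the thresholds had similar profiles. SAMD3 was inside with 5.05 CPM at 0.15 µM, and SMPDL3B outside with 4.81 CPM. ST6GALNAC1, a sialyltransferase, was inside at 1.501 times untreated, and ERMAP, the carrier of the Scianna blood group, outside at 1.493 times. CMTM7 was inside at 0.667 times untreated at 1 µM, and ZNF276 outside at 0.671 times.

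Between 0.25 and 0.5 µM, 231 of the 237 members (97.5%) were lower at the higher dose by edgeR's quasi-likelihood test at an adjusted p under 0.05, and 0 were higher. Over all 23711 tested genes 16.0% were lower and 14.4% higher in this comparison, and 23.5% of the expressed protein-coding genes were lower. DESeq2 also gave 231 members lower and 0 higher, and 231 members had an unadjusted p under 0.05 in edgeR. The median log2 fold change of the members was -1.84, with quartiles of -2.50 and -1.36 and a range from -6.54 to -0.31, against a median of 0.02 over all tested genes. A fall of over 4-fold was called in 99 members (41.8%) and in 3.24% of all tested genes. In 228 members every library at 0.25 µM lay above every library at 0.5 µM, which was the case in 22.9% of all tested genes. Among the genes that met the rule at 0.15 µM but not at 1 µM, 731 of 3163 (23.1%) were lower at 0.5 than at 0.25 µM. Among those that met it at 1 µM but not at 0.15 µM, 1398 of 3089 (45.3%) were lower. As levels at 0.5 and 1 µM were alike, the choice by 1 µM favours such falls. The shares of members are thus no independent support for the pattern.

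**Figure D2:**
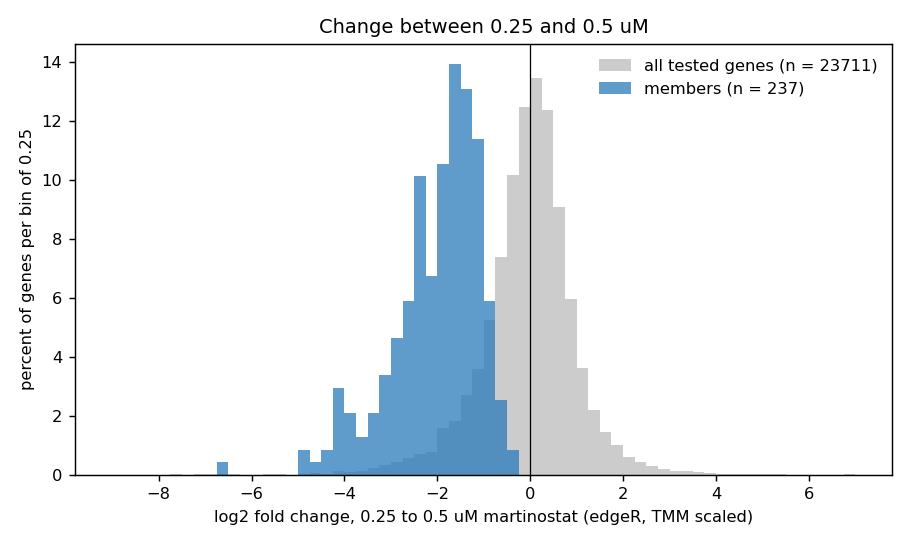
Distribution of log2 fold changes from 0.25 to 0.5 µM martinostat (edgeR, TMM scaled), as the percent of genes in bins of 0.25, for the 237 members in blue and all 23711 tested genes in grey. The blue bars lie wholly below 0, around a median of -1.84, and the grey bars around 0.02.

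Against untreated cells, both doses share the untreated libraries with the choice of members, so these counts are given as descriptions. On the TMM scale 57 members were higher than untreated at 0.25 µM and 31 were lower, beside 37.4% and 24.8% of all tested genes, and 149 were called in neither direction. At 0.5 µM, 232 members were lower than untreated and 0 higher, beside 27.6% and 39.4% of all genes; in the same fit 233 members had an unadjusted p under 0.05, and DESeq2 also gave 0 higher. The contrasts of the rule gave 129 members higher at 0.15 µM, with 31.9% of all genes higher, and 235 lower at 1 µM, with 27.5% of all genes lower. From 0.15 to 0.25 µM, 97 members were lower and 1, MACC1, a regulator of MET signalling, was higher, beside 7.32% and 4.96% of all genes. The choice of members used the 0.15 µM libraries, which favours falls in this step, so these counts are descriptions too. The step from 0.5 to 1 µM likewise shares the 1 µM libraries with the choice. From 0.5 to 1 µM 0 members were called lower and 0 higher, and over all genes the calls were 0% in each direction in edgeR and 0 in DESeq2, with an unadjusted p under 0.05 in 372 genes, 10 of them members. On the scale of library totals, all tested genes had a median log2 change of 0.84 from untreated to 0.25 µM, against 0.32 with TMM, so a member at 1.5 times untreated in CPM can lie near the median of all genes.

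**Figure D3:**
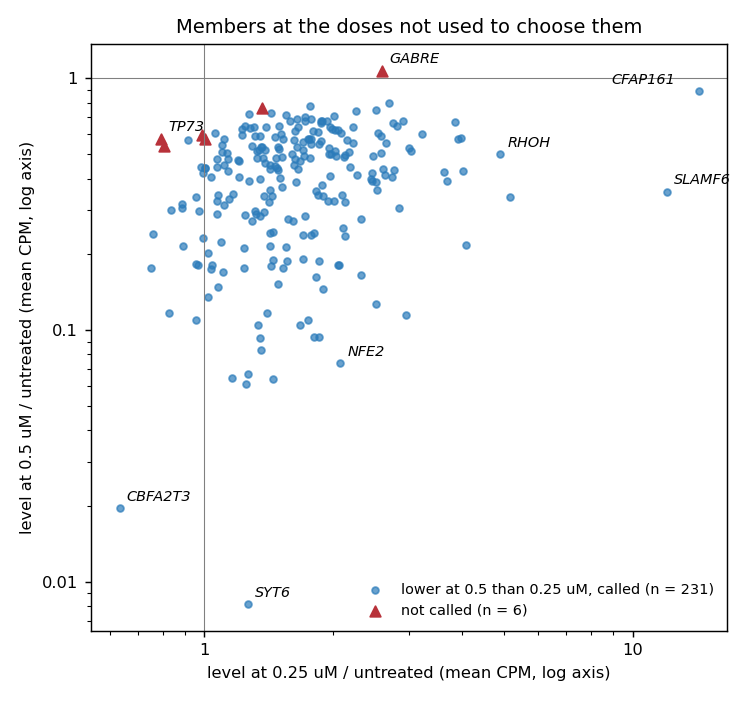
Mean level of each member at 0.25 µM (x axis) and at 0.5 µM (y axis), both divided by the untreated mean on log axes; blue points are the 231 members called lower at 0.5 than at 0.25 µM and red triangles the 6 that were not. Nearly all points lie to the right of 1 on the x axis (217 members) and below 1 on the y axis (236 members), with CBFA2T3 and SYT6 lowest at 0.5 µM.

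Of 20 expressed erythroid transcription factors 3 were members. NFE2 (chr12:54292111-54301015, GRCh38, minus strand), the blood-specific subunit of the NF-E2 factor of globin and platelet genes, was at 221, 212 and 202 CPM in the untreated replicates. It was at 392, 419 and 527 CPM at 0.15 µM and at 495, 396 and 427 CPM at 0.25 µM, then at 13.7, 14.0 and 19.15 CPM at 0.5 µM and 12.4, 18.6 and 22.2 CPM at 1 µM. The libraries at 0.25 and 0.5 µM were thus far apart, and its log2 fold change between these doses was -4.68 (SE 0.22, edgeR adjusted p = 3.44e-11). MYB (chr6:135181308-135219173), the factor of blood progenitors, was at 267, 239 and 330 CPM at 0.25 µM and at 25.5, 31.2 and 60.5 CPM at 0.5 µM, after an untreated mean of 164 CPM. Its log2 fold change was -2.72 (SE 0.21). SOX6, which acts in the silencing of fetal globin, was at 29.8, 30.9 and 29.9 CPM at 0.25 µM and at 6.06, 7.705 and 10.2 CPM at 0.5 µM, against 14.0 CPM in untreated cells, and changed by -1.79 (SE 0.17). Over the whole list of 21 tested genes, 13 were lower and 1 higher at 0.5 than at 0.25 µM, with a median log2 fold change of -0.85.

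The corepressor CBFA2T3 (chr16:88874858-88977207), known as ETO2 and a partner of TAL1 and GATA1 in erythroid complexes, showed a decline already at 0.25 µM. Its replicates were at 155, 137 and 167 CPM untreated, 286, 269 and 306 CPM at 0.15 µM, 102, 89.4 and 99.5 CPM at 0.25 µM, and 2.44, 2.66 and 3.88 CPM at 0.5 µM. It was the member at or under 0.67 times untreated at 0.25 µM, and it had the lowest adjusted p among the members between 0.25 and 0.5 µM, with a log2 fold change of -4.88 (SE 0.19, edgeR adjusted p = 1.22e-11). PITX1, a homeodomain factor, had the highest mean CPM of all members at 0.15 µM, 1002 ± 234 CPM (SD, n = 3), and was at 814, 641 and 435 CPM at 0.25 µM and 91.6, 90.5 and 77.2 CPM at 0.5 µM (log2 fold change -2.72, SE 0.28). BHLHE40, a basic helix-loop-helix repressor, was at 161 CPM untreated, 357 and 397 CPM at 0.15 and 0.25 µM in group means and 79.4 CPM at 0.5 µM (-2.22, SE 0.21).

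Genes of heme synthesis and of the red cell surface made up 7 members. ALAS2, the first enzyme of heme synthesis in erythroid cells, was at 157, 162 and 175 CPM untreated, 274, 272 and 325 CPM at 0.15 µM, 181, 162.5 and 203 CPM at 0.25 µM and 32.9, 33.0 and 18.0 CPM at 0.5 µM. Its 0.25 µM libraries overlapped the untreated ones, and its log2 fold change from 0.25 to 0.5 µM was -2.50 (SE 0.24, edgeR adjusted p = 2.59e-07). SLC25A37, the mitochondrial iron importer mitoferrin-1, was at 188, 129 and 274 CPM at 0.25 µM and at 43.3, 49.6 and 113.5 CPM at 0.5 µM, where the third library stood apart at both doses (-1.40, SE 0.23). In the list of heme synthesis, 10 of 20 tested genes were lower and 2 higher in that step.

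KEL, the Kell blood group protein, was at 183, 154 and 340 CPM at 0.25 µM and 44.2, 48.2 and 108 CPM at 0.5 µM, with the third library again the highest in each group, against 85.8, 83.4 and 81.0 CPM untreated. Its log2 fold change was -1.63 (SE 0.23), and -1.66 without both of those libraries. GYPE and GYPB, glycophorins of the red cell membrane, were at 86.2, 84.1 and 142 CPM and at 39.5, 49.98 and 80.6 CPM at 0.25 µM, and at 3.915, 3.26 and 6.605 CPM and 4.67, 4.21 and 4.45 CPM at 0.5 µM. Both groups of libraries were separate, with log2 fold changes of -4.36 (SE 0.19) and -3.49 (SE 0.23). The glycophorin genes are near-identical copies, as are RHD and RHCE, so the split of reads between them is uncertain. RHD, the Rh D antigen, was at 30.7, 47.1, 29.7, 5.56 and 4.94 CPM in group means (0.25 to 0.5 µM -2.26, SE 0.17). DMTN, the actin-bundling protein dematin, was at 31.5, 102, 57.9, 10.8 and 11.6 CPM (-2.26, SE 0.18). On the TMM scale SLC25A37, KEL and DMTN were called higher than untreated at 0.15 µM, but ALAS2, GYPE, GYPB and RHD were not. RHD was called lower than untreated at 0.25 µM on that scale, with a log2 fold change of -0.57. Of 36 tested genes of the red cell list 23 were lower and 2 higher between 0.25 and 0.5 µM, and their summed CPM ran from 3506 to 4623 at 0.25 µM and from 1581 to 1986 at 0.5 µM. None of the 7 expressed globins was a member, but with a general share of 2.19% so short a list would rarely hold one.

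The 250 bases before the RefSeq start are given for 5 members picked among those that hold the GATA motif AGATAA. They are ALAS2, KEL and GYPE of the lists above, and SLAMF6 and IL18RAP from outside them. The motif binds the erythroid GATA factors and was more frequent in promoters of members than in those of expressed genes. The sequences are from RefSeq on GRCh38.p14, read 5′ to 3′ on the strand of the gene, and capitals mark AGATAA or its complement TTATCT. The windows are chrX:55030978-55031227 (minus strand) for ALAS2, chr7:142962364-142962613 (minus) for KEL, chr4:143905560-143905809 (minus) for GYPE, chr1:160523256-160523505 (minus) for SLAMF6 and chr2:102418371-102418620 (plus) for IL18RAP. IL18RAP holds 2 copies and the other windows 1 copy each.
ALAS2: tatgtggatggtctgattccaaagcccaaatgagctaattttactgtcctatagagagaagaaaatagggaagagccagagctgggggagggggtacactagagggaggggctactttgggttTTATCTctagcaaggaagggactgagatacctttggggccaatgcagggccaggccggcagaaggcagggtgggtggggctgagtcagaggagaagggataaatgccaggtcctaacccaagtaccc
KEL: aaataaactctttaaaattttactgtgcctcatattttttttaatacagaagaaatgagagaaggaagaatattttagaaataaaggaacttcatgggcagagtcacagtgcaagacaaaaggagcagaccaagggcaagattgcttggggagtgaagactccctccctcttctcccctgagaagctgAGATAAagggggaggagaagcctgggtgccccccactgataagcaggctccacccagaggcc
GYPE: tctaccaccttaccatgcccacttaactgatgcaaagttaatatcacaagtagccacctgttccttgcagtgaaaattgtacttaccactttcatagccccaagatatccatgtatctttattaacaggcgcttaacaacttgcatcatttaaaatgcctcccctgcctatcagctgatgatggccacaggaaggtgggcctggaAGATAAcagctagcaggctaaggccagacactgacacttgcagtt
SLAMF6: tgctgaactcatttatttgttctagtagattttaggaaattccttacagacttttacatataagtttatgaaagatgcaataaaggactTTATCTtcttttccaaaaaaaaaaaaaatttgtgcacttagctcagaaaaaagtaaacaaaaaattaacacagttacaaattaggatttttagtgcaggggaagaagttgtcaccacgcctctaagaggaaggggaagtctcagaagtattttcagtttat
IL18RAP: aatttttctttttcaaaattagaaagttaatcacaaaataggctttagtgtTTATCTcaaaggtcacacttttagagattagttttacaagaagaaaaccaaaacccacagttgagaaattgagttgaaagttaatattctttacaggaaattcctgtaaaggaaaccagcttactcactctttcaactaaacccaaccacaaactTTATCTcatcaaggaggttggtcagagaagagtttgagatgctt

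A promoter of 300 bases (250 before and 50 after the start) was found in the RefSeq table for 183 of the 237 members. AGATAA, searched on both strands, was in 24 of them (13.1%), against 4.78% of 8909 promoters of expressed protein-coding genes and 7.58% of 15842 promoters of all protein-coding genes. The GC box GGGCGG, a motif of SP and KLF factors, was in 53.6% of member promoters against 72.7% and 58.5%. CCAAT was in 26.2% against 37.2% and 36.4%, and the ETS motif CCGGAAGT in 2.19% against 9.69% and 6.19%. The E-box CACGTG was in 6.56% of member and 10.6% of expressed promoters, the AP-1 motif TGANTCA in 5.46% and 3.95%, and the cAMP response element TGACGTCA in 2.19% and 3.48%. The STAT motif TTCNNNGAA was in 3.83% and 5.90%, the CACCC box CCACACCC in 3.28% and 2.90%, the E2F motif TTTCCCGC in 1.64% and 2.77% and the TATA box TATAAA in 8.197% and 4.995%. No motif searched contains another. Median GC content was 63.3% in member promoters and 65.7% in expressed ones. The lower quartiles were 51.8% and 59.3%, and the upper quartiles 73% and 72.3%. Whether the motif shares follow from base composition was not tested. These shares are descriptions of letters, not of binding. The members with AGATAA included ALAS2 of the heme synthesis list, KEL, GYPE, GYPB and RHD of the red cell list, FCGR2A, IL9R, SLAMF6, STAT6 and MS4A3. The promoters of CBFA2T3, MYB and SOX6 did not hold it.

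Markers of other blood lineages were among the members too. SPI1, which encodes PU.1, the factor of myeloid and B cell fate, was at 29.2, 21.6 and 27.8 CPM untreated, 137, 128 and 127 CPM at 0.15 µM, 95.8, 101.5 and 87.8 CPM at 0.25 µM and 11.3, 11.3 and 10.8 CPM at 0.5 µM. The libraries of each group lay close together, and these 4 groups did not overlap. Its log2 fold change was -2.94 (SE 0.17, edgeR adjusted p = 8.90e-10). LYZ, lysozyme, was at 12.8, 14.9 and 41.6 CPM at 0.25 µM and 1.64, 1.31 and 4.38 CPM at 0.5 µM, and 34.7% of its exon bases lie under exons of the opposite strand. FCGR2A, an Fc receptor, was at 11.3, 32.3, 23.2, 2.05 and 1.81 CPM in group means (0.25 to 0.5 µM -3.35, SE 0.20), and CEBPD, a C/EBP factor, at 7.31, 14.9, 11.1, 1.29 and 1.52 CPM (-2.93, SE 0.34). CD3D, a subunit of the T cell receptor complex, went from 2.83 CPM untreated to 15.3 and 11.3 CPM at the lower doses and 1.63 CPM at 0.5 µM. Thus 4 of 13 expressed myeloid genes and 1 of 2 expressed lymphoid genes were members, beside a general share of 2.19%. Expressed refers to the level at 0.15 µM, where members were chosen to be high, so these shares are shaped by the choice. Summed over the list, myeloid markers ran from 177 to 186 CPM untreated, 430 to 482 CPM at 0.25 µM and 304 to 339 CPM at 0.5 µM, with 5 of 25 at 0 counts in untreated cells, and lymphoid markers from 5.79 to 9.61, 43.4 to 56.1 and 35.4 to 50.5 CPM, with 10 of 23 at 0. Their part in the results was not tested. Of 22 tested myeloid genes 12 were lower and 3 higher from 0.25 to 0.5 µM (median log2 fold change -0.91), and of 19 tested lymphoid genes 1 was lower and 2 were higher (median 0.18). The myeloid and T cell markers CD14 and CD3E were at 0.166 and 0.432 CPM in untreated cells and at 0.384 and 2.45 CPM at 0.25 µM.

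IL9R, the interleukin-9 receptor, was at 14.6, 10.2 and 17.2 CPM at 0.25 µM and 0.758, 0.477 and 1.10 CPM at 0.5 µM (log2 fold change -4.01, SE 0.28). IL1RL1, the receptor of interleukin-33, was at 1.31, 8.38, 5.25, 0.559 and 0.549 CPM in group means, and its log2 fold change from untreated to 0.25 µM was 1.47. IL18RAP, a subunit of the interleukin-18 receptor that lies 66651 bases from IL1RL1 on chromosome 2, was at 7.15, 19.2, 12.9, 0.673 and 0.642 CPM. STAT6, the transcription factor of interleukin-4 signalling, was at 77.2, 62.8 and 99.3 CPM at 0.25 µM and 9.05, 11.4 and 27.0 CPM at 0.5 µM. PIM1, a survival kinase induced by STAT5, had the highest level per kilobase of exon at 0.15 µM, 305 CPM per kb, followed by PITX1 with 291, the neuropeptide gene NMU with 197 and NFE2 with 189. It was at 365, 339.5 and 301 CPM untreated, 976, 934 and 865 CPM at 0.15 µM, 878, 785 and 894 CPM at 0.25 µM and 155, 165 and 293 CPM at 0.5 µM. Its log2 fold change from 0.25 to 0.5 µM was -1.95 (SE 0.17, edgeR adjusted p = 9.38e-08). In the list of STAT5 targets and cytokine signalling, 10 of 34 tested genes were lower and 10 higher in that step, with a median log2 fold change of -0.15. In the list of chemokines, interleukins and their receptors, which holds IL9R and IL1RL1, 19 of 51 were lower and 6 higher.

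Regulators of survival and of entry into the cell cycle included 4 members. BCL2L1, which encodes the anti-apoptotic BCL-XL, was at 107, 102 and 107 CPM untreated, 262, 243.5 and 275 CPM at 0.15 µM, 216, 193 and 190 CPM at 0.25 µM and 33.5, 37.7 and 36.4 CPM at 0.5 µM. No library at 0.25 µM came near those at 0.5 µM, and the log2 fold change was -2.33 (SE 0.15, edgeR adjusted p = 2.53e-09). Of its exon bases 41.3% lie under opposite-strand exons. CFLAR, the caspase-8 inhibitor c-FLIP, was at 66.5, 112, 140, 16.96 and 14.9 CPM in group means (-2.93, SE 0.26). CCND1 and CCND2, the D-type cyclins, were at 27.6 ± 9.00 and 86.3 ± 10.4 CPM (SD, n = 3) at 0.25 µM. Their levels at 0.5 µM were 5.75 ± 2.64 and 30.9 ± 17.8 CPM, with log2 fold changes of -2.13 (SE 0.22) and -1.41 (SE 0.25). Among apoptosis regulators 10 of 43 tested genes were lower and 11 higher in this step, and among G1 cyclins, CDKs and inhibitors 4 of 17 were lower and 6 higher.

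**Figure D4:**
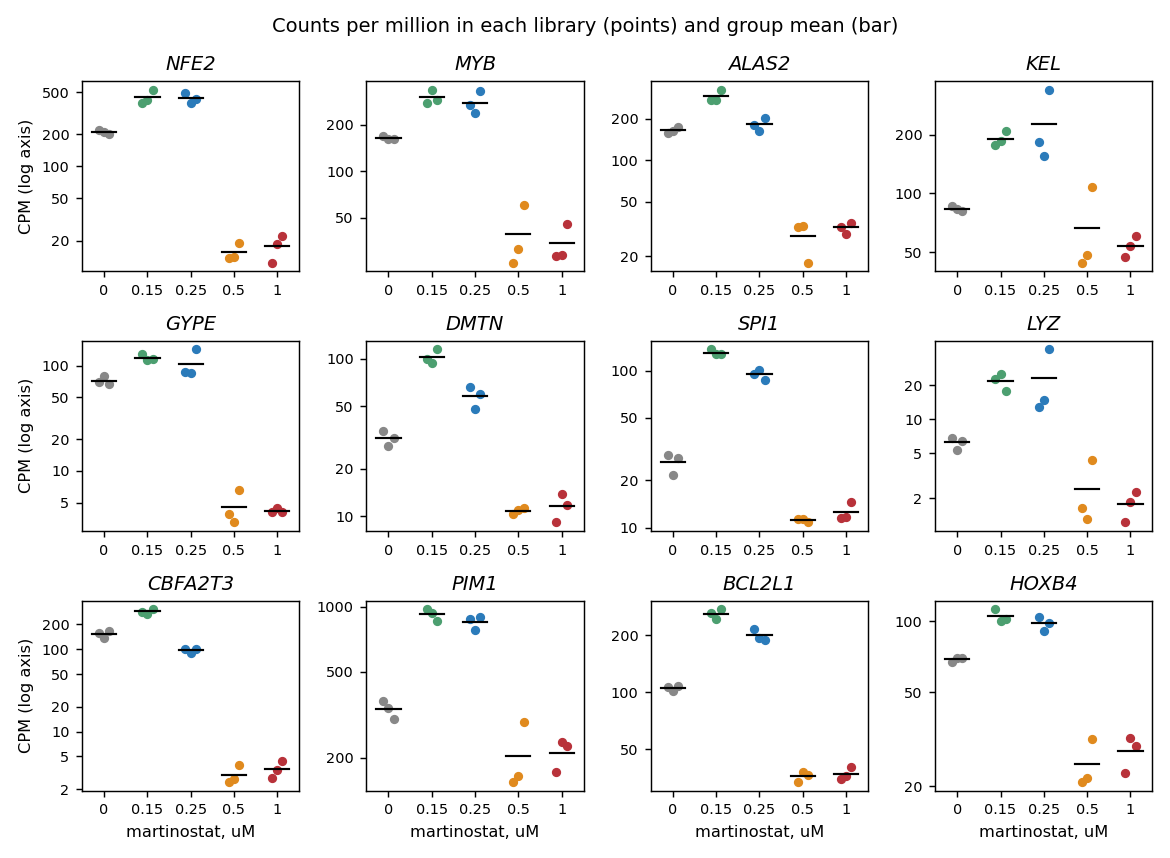
CPM of 12 members in each library (points, log axes with a range of their own) by martinostat dose in µM, with the mean of the 3 libraries as a bar. In each panel the libraries at 0.25 µM lie above those at 0.5 µM; for KEL the third library at 0.5 µM, 108 CPM, is above the untreated mean of 83.4 CPM.

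Some members lay next to each other. Within 100 kb of another member were 27 members, in 18 pairs. HOXB3, HOXB4 and HOXB6, homeobox factors of blood progenitors on chromosome 17, were 3 of 16 expressed HOX genes. HOXB4 was at 104, 91.3 and 98.1 CPM at 0.25 µM and 20.9, 21.7 and 31.8 CPM at 0.5 µM (-1.85, SE 0.15), and HOXB6 at 6.74 ± 3.13 and 1.06 ± 0.340 CPM (SD, n = 3; -2.50, SE 0.28). HOXB3 was at 25.7, 26.5 and 61.4 CPM at 0.25 µM and 4.55, 6.35 and 26.45 CPM at 0.5 µM, so that its groups overlapped through the third library at 0.5 µM. The gene spans HOXB4 and overlaps HOXB6. Its log2 fold change was -1.52 (SE 0.44, edgeR adjusted p = 0.0176), and -2.056 without replicate 3 at both doses. Of 31 tested HOX genes 13 were lower and 1 higher. On chromosome 2, the nucleotide kinase CMPK2, the antiviral protein RSAD2 (viperin) and the ubiquitin ligase RNF144A were adjacent. RSAD2 was at 22.3, 115, 91.2, 4.86 and 4.12 CPM in group means, CMPK2 at 80.4, 229, 140, 8.86 and 9.54 CPM, and RNF144A at 140, 316, 307, 62.5 and 59.5 CPM. These fell by 4.11, 3.85 and 2.16 on the log2 scale from 0.25 to 0.5 µM. None of the 26 expressed genes of the interferon and antigen presentation list, which does not hold these genes, was a member. At the general share of 2.19% a list of this size can easily lack members.

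The lymphoid surface receptors SLAMF6 and CD84 of the SLAM family, on chromosome 1 with 17832 bases between them were both members. SLAMF6 was at 2.30, 2.56 and 2.64 CPM untreated, 37.05, 35.5 and 34.2 CPM at 0.15 µM, 20.8, 23.8 and 45.6 CPM at 0.25 µM and 0.421, 1.11 and 1.13 CPM at 0.5 µM. It was called higher than untreated at 0.25 µM, by 3.03 on the log2 scale, and lower at 0.5 than at 0.25 µM with a log2 fold change of -4.90 (SE 0.47, edgeR adjusted p = 1.43e-06). CD84 was at 5.46, 16.7, 12.6, 0.900 and 0.585 CPM in group means. Adaptors of immune receptor signalling, LCP2 (SLP-76) and GRAP2 (GADS), were at 2.57, 7.71, 4.68, 0.417 and 0.298 CPM and at 23.4, 72.3, 48.0, 4.25 and 3.27 CPM. MS4A4A, a membrane protein of macrophages, was at 23.8, 40.1, 29.8, 1.45 and 1.18 CPM. GRAP2, CMPK2, RHD, MACC1, ZEB2, GAD1, ICAM5, RNF207, NMU and MS4A3, and the non-coding genes named at the end, were named after their values were seen.

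The 12 members with the highest ratio of 0.15 to 1 µM also held genes that are not known for roles in blood cells. SYT6, a synaptotagmin, was at 1.62, 1.22 and 1.23 CPM untreated, 7.499, 7.996 and 7.07 CPM at 0.15 µM, 2.21, 1.64 and 1.28 CPM at 0.25 µM, and had 1 count in the 3 libraries at 0.5 µM together, against 142 counts at 0.25 µM. The ratio of these sums, scaled by the library totals, was 134, with an exact 95% interval from 23.6 to 5315 that covers counting error only. ALB, albumin, was at 22.2, 21.3 and 4.46 CPM at 0.25 µM and 0.337, 1.11 and 1.095 CPM at 0.5 µM, after 12.6 and 46.1 CPM untreated and at 0.15 µM in the mean. ASIC4, of the acid-sensing ion channel family, was at 39.25, 88.5, 65.5, 4.12 and 2.54 CPM. CFAP161, a ciliary protein, was at 0.422 CPM untreated and 6.12 CPM at 0.15 µM, the highest ratio to untreated of all members at 14.5, and at 2.78, 2.59 and 12.7 CPM at 0.25 µM and 0.168, 0.159 and 0.797 CPM at 0.5 µM. Of these 12 members, SYT6, ALB, IL18RAP, CD84, CFAP161 and LCP2 were not tested when at least 10 counts were asked in every library.

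**Figure D5:**
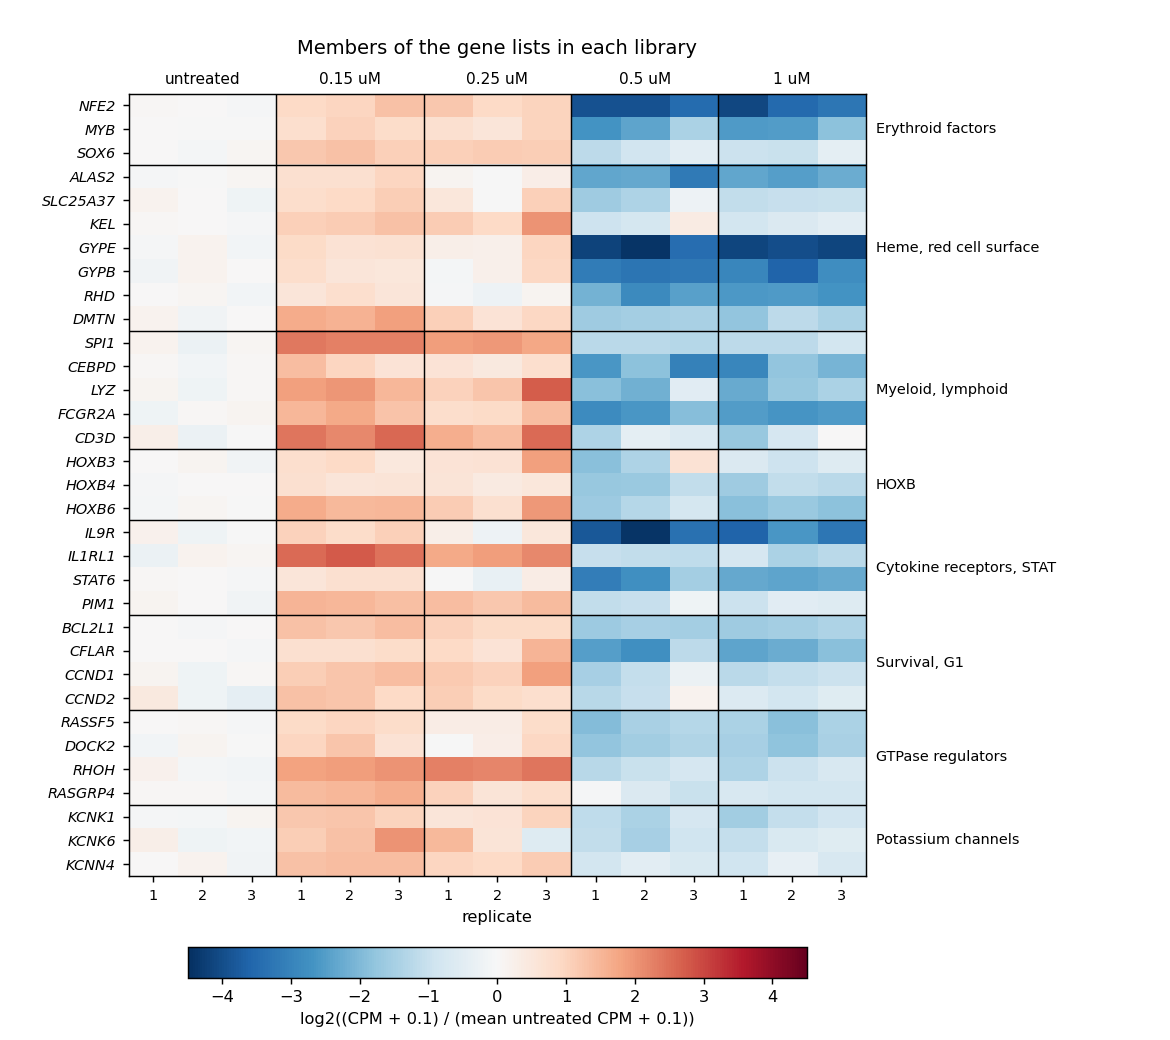
Heat map of members in the gene lists for blood, cytokine, survival, GTPase and channel genes (rows) in the 15 libraries (columns, replicates 1 to 3 of each group), as log2 of CPM plus 0.1 over the untreated mean plus 0.1. Red cells at 0.15 µM turn to blue at 0.5 and 1 µM, with paler blue or red in the third library at 0.5 µM for KEL, HOXB3 and CCND2. At 0.25 µM rows are red or, as for RHD and ALAS2, close to the untreated level.

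Members with high CPM at 0.15 µM included enzymes and membrane proteins. FURIN, a proprotein convertase, was at 429.5, 394 and 352 CPM at 0.25 µM and 130, 148 and 161 CPM at 0.5 µM (-1.29, SE 0.16). SERPINB6, a protease inhibitor, was at 294 ± 48.4 and 96.6 ± 12.3 CPM (SD, n = 3), and TMC6, of the TMC membrane proteins, at 265 ± 41.2 and 84.5 ± 6.52 CPM. ANXA1, the phospholipid-binding annexin A1, was at 318, 391 and 588 CPM at 0.25 µM and 21.85, 29.6 and 87.9 CPM at 0.5 µM, a log2 fold change of -3.14 (SE 0.37). ACSM3, a mitochondrial acyl-CoA synthetase whose gene spans its paralogue ACSM1, also a member, on the opposite strand, was at 211, 238 and 373 CPM and 41.7, 39.5 and 56.2 CPM (-2.42, SE 0.16). Low adjusted p-values were also found for RCSD1, a regulator of actin capping (217 ± 23.0 and 21.97 ± 3.52 CPM, SD, n = 3; log2 fold change -3.16, SE 0.14), ST6GALNAC1 (99.1 ± 3.04 and 6.09 ± 0.498 CPM; -3.88, SE 0.17) and NOSTRIN, an adaptor of nitric oxide synthase (75.2 ± 23.4 and 5.19 ± 1.43 CPM; -3.70, SE 0.17).

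Signalling proteins of the small GTPases gave 4 members of 53 expressed genes. RHOH, a small GTPase of blood cells, was higher at 0.25 than at 0.15 µM in its means, with 13.2, 49.8, 64.45, 6.57 and 6.54 CPM over the groups, with a log2 fold change of 1.77 from untreated to 0.25 µM (0.25 to 0.5 µM -3.15, SE 0.17). RASSF5, a Ras effector, was at 75.9, 142, 109, 25.9 and 25.6 CPM, the Rac activator DOCK2 at 37.8, 73.96, 52.2, 12.9 and 12.5 CPM, and the Ras activator RASGRP4 at 5.20, 15.1, 9.22, 3.58 and 2.98 CPM. Of 79 tested genes of this list 21 were lower and 12 higher from 0.25 to 0.5 µM. The potassium channels KCNK1, KCNK6 and KCNN4 were 3 of 19 expressed, with log2 fold changes of -1.69, -1.81 and -1.53, while 12 of 68 tested channels were lower and 15 higher. KCNN4, the calcium-activated channel of red cells, was at 7.29, 18.8, 14.71, 4.55 and 4.65 CPM.

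Adhesion, matrix and growth factor genes were represented by ITGB5, an integrin subunit (37.97 ± 4.76 CPM, SD, n = 3, at 0.25 µM, then 10.4 ± 1.69 CPM at 0.5 µM), the collagen COL1A2 (22.7 ± 4.03 and 9.05 ± 0.886 CPM), the TGF-beta receptor TGFBR2 (43.1 ± 11.1 and 11.7 ± 4.10 CPM), the ligand WNT5B (10.1 ± 3.45 and 1.93 ± 0.305 CPM) and the semaphorin SEMA4C (67.8 ± 15.8 and 13.9 ± 7.17 CPM). These 5 were lower at 0.5 µM, with log2 fold changes from -2.24 for WNT5B to -1.19 for COL1A2, while the collagen COL4A2, also a member, was not called (-0.67). In their lists the counts lower and higher were 13 and 8 of 68 tested integrin and matrix genes, 10 and 7 of 41 TGF-beta and BMP genes, 12 and 11 of 49 Wnt genes, and 7 and 12 of 46 axon guidance genes. ALDH1A2, which makes retinoic acid, was at 129, 239.5, 196, 47.8 and 50.4 CPM, and the orphan nuclear receptor ESRRB at 8.07, 26.0, 18.0, 4.49 and 4.88 CPM. TMEM273, a membrane protein, was at 134 and 18.1 CPM at 0.25 and 0.5 µM (-2.76, SE 0.19), and the small heat shock protein CRYAB at 4.74 and 0.927 CPM. SETD7, a lysine methyltransferase, was at 73.6 and 24.0 CPM, RAD51D, of the homologous recombination proteins, at 22.3 and 8.43 CPM, and the unconventional myosin MYO1C at 56.2 and 29.1 CPM.

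Of 320 expressed zinc finger (ZNF) genes 8 were members (2.50%), and of 206 expressed solute carriers 6 (2.91%). Both shares were near the 2.19% of all expressed protein-coding genes. From 0.25 to 0.5 µM, 48 of 477 tested ZNF genes were lower and 90 higher (median log2 fold change 0.16), and 69 of 315 solute carriers were lower and 55 higher. ZNF521, a factor of blood progenitors, was at 56.2 and 9.45 CPM at 0.25 and 0.5 µM (-2.43, SE 0.21), ZNF827 at 19.7 and 5.34 CPM, ZNF395 at 46.0 and 19.2 CPM and ZNF692 at 67.3 and 29.1 CPM. SLC27A2, a fatty acid transporter, was at 78.3 and 21.99 CPM, SLC37A1, of the sugar phosphate exchangers, at 31.7 and 8.09 CPM, and SLC12A7, a potassium chloride cotransporter, at 75.8 and 47.1 CPM. Of 50 gene lists, 26 held members and 62 members were in some list. Among the 24 lists without members were globins (7 expressed genes), iron uptake (15), histone deacetylases (16), ribosomal proteins (90), lysosome genes (51) and megakaryocyte genes (11). With a general share of 2.19%, most of these lists are too short for the lack of members to be a result. From 0.25 to 0.5 µM, 3 of 18 tested histone deacetylases were lower and 9 higher. Of 60 tested replication-dependent and variant histone genes, 1 was lower and 39 were higher. The summed CPM of the histone list ran from 4877 to 7625 at 0.25 µM and from 6118 to 10150 at 0.5 µM, so the libraries overlapped.

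In 36 members the mean at 0.25 µM was above that at 0.15 µM. MACC1 had the highest ratio of these doses, with 44.6, 70.7, 126, 28.7 and 23.5 CPM over the groups, and was called in that step with a log2 fold change of 0.67 (SE 0.18, edgeR adjusted p = 0.0232). As the choice of members used the 0.15 µM libraries, this p-value is a description. Others, named for this ratio after their values were seen, were the acid phosphatase ACP3 (5.52 and 8.31 CPM at 0.15 and 0.25 µM), the adaptor CASS4 (35.8 and 49.9 CPM) and the syntaxin-binding protein STXBP5 (192 and 265 CPM), and for these 3 the difference between the doses was not called. The repressor ZEB2 was at 62.7, 98.3, 118, 9.10 and 7.38 CPM, and GAD1, the GABA-synthesising enzyme, at 44.6, 171, 172, 30.0 and 26.3 CPM.

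The 6 remaining members were not called between 0.25 and 0.5 µM, all with lower means at 0.5 µM. TP73, a p53 family member, was at 11.4, 11.0 and 8.38 CPM at 0.25 µM and 6.61, 8.78 and 7.07 CPM at 0.5 µM (log2 fold change -0.31, SE 0.22, edgeR adjusted p = 0.323), so that its groups overlapped. On the TMM scale it was already called lower than untreated at 0.25 µM, with a log2 fold change of -0.84. Such calls depended on the scaling, with 31 members called lower there by TMM and 1 by library totals. NT5M, a mitochondrial nucleotidase, was at 4.94 and 3.29 CPM (-0.42, SE 0.27), the collagen COL4A2 at 4.53 and 2.61 CPM (-0.67, SE 0.32), the adhesion molecule ICAM5 at 33.2 and 20.04 CPM (-0.60, SE 0.30), and RNF207, a ring finger protein, at 8.86 and 4.93 CPM (-0.74, SE 0.48). GABRE was at 34.6, 28.3 and 151 CPM at 0.25 µM and 8.97, 10.8 and 68.7 CPM at 0.5 µM (-1.18, SE 0.67, edgeR adjusted p = 0.216). Without replicate 3 at both doses its log2 fold change was -1.46 with an adjusted p of 2.764e-06 in edgeR.

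In size the members were like other expressed genes, with a median of 5422 exon bases against 5577 and a median span of 40536 against 33522 bases. Their median untreated level was 18.9 CPM against 37.1 CPM. They were spread over 23 chromosomes, and between 1.09% (chromosome 19) and 3.58% (chromosome 12) of the expressed protein-coding genes of a chromosome were members. In 11 members over 20% of the exon bases lie under exons of the opposite strand, and whether the counting used strand is not given in the sources used here.

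The same thresholds applied to genes of other types found 71 genes, 61 of them long non-coding RNAs, and 67 of these 71 were lower and 0 higher at 0.5 than at 0.25 µM, where the tool was edgeR. The choice by 1 µM favours such falls here too. MIR223HG, the host transcript of the myeloid microRNA miR-223, was at 6.21, 48.2, 41.0, 0.166 and 0.0714 CPM in group means over the rising doses, with a log2 fold change from 0.25 to 0.5 µM of -7.56 (SE 0.96, edgeR adjusted p = 6.34e-05). LINC02772 was at 26.6, 90.8, 109.5, 2.69 and 2.02 CPM (-5.19, SE 0.40). GATA2-AS1, antisense to the progenitor factor GATA2, was at 52.8, 88.0, 61.1, 19.4 and 19.0 CPM (-1.51, SE 0.15). PITX1-AS1, antisense to the member PITX1, was at 6.52, 12.5, 11.8, 2.79 and 2.20 CPM, and without known strand counting the reads of such pairs cannot be told apart.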

How the data were processed

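Libraries were prepared from poly(A) RNA of 15 K-562 cultures, labelled as biological replicates, so p-values measure the spread between these cultures. The authors trimmed reads (Trim Galore 0.6.10), aligned them to hg38 (HISAT2 2.2.1, SAMtools 1.21) and deposited raw counts per GENCODE gene from featureCounts 1.5.3. FPKM values, also deposited, were not used, being these counts over length and total. Totals of 23755510 to 32805574 counts limit precision for low genes. In R 4.3.3, edgeR 4.0.16 (TMM, filterByExpr, robust quasi-likelihood test) was fitted to all 15 libraries and 23711 genes, with Benjamini-Hochberg adjustment and calls at an adjusted p under 0.05. DESeq2 1.42.0, other scalings and filters, left-out libraries and a replicate block were alternatives. No 2 libraries agreed within counting noise. Members and gene lists were chosen with earlier results of these data known. Named genes were the 12 members with the highest ratio of 0.15 to 1 µM, the 10 with the highest CPM at 0.15 µM, the 6 with the lowest adjusted p and the 3 with the smallest falls from 0.25 to 0.5 µM, up to 4 members of each list, and the genes nearest each threshold. Same-numbered libraries correlated in their deviations between 0.25 and 0.5 µM (r = 0.235, 0.236 and 0.542). Replicate 2 at 0.25 µM also correlated with replicate 1 at 0.5 µM (r = 0.209). The main fit had group as its only term and used no pairing, which entered only through the replicate block of the alternatives. In simulated data of the 0.25 to 0.5 µM comparison (22706 genes), 72% of 2-fold and 97% of 4-fold changes were recovered. Some results on single genes are not reported here.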

Additional observations from a re-analysis of the deposited data

How the results depend on the processing

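Across 25 alternatives 215 to 235 members were lower at 0.5 than at 0.25 µM (228 to 233 with 1 library left out) and 0 were higher. With the replicate block, in all libraries or only the groups compared, the count was 231, and the pairing changed no call of this comparison. Leaving out replicate 3 at both doses, chosen after seeing the data, gave 234 and a median log2 fold change of -1.841. The median of -1.844 was -1.968 with library totals, -1.719 with at least 10 counts in every library, which left 16 called members untested, and -1.877 to -1.783 with 1 library left out. Members numbered 141 with RLE scaling, 60 with folds of 2 and 0.5, 129 with every library past the threshold, and 227 to 258 with 1 library left out.

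Counts against untreated and 0.15 µM depended on the scaling. Members higher at 0.25 µM than untreated (57) numbered 136 with library totals, 125 when the TMM factors came from genes above 10 CPM, 87 with at least 10 counts, and 42 to 65 with 1 library left out. Members lower there (31) numbered 1, 1 and 6 in the same order, 17 to 40 with 1 library left out, 18 without untreated replicate 3 and 17 without replicate 3 at 0.25 µM. Members lower at 0.25 than at 0.15 µM (97) numbered 49 with library totals, 57 with the latter factors, 64 in only the groups compared, 20 with the replicate block there, and 50 to 125 with 1 library left out (50 without replicate 3 at 0.15 µM, 59 without replicate 2 at 0.25 µM). The member higher there (1) became 2 in DESeq2 and 0 with the replicate block in only the groups compared, and 0 to 1 with 1 library left out. For 79 named genes, 1956 of 1969 values kept their direction and side of the threshold, 8 lost the call, 5 gained it and 0 reversed. The causes were not tested.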
